A study of Mus musculus with 10 samples.

Results

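The 9 genes described here encode heat shock chaperones: Hspa1a, Hspa1b, Hsph1, Dnajb1 and Hsp90aa1, which cells switch on under proteotoxic stress, and Hspa8, Hsp90ab1, Hspa5 and Hspe1, which most cells transcribe all the time. They are 9 of the 31053 genes in the deposited matrices. They were selected on the measured UMI levels of these same tumors, including the comparison of WT with EC-AGO1-KO tumors within batch and with single libraries left out. Their values between those groups, and the ranges with libraries left out, are therefore a description. The data are single-cell RNA-seq counts of E0771 tumors, a mouse mammary carcinoma line that was implanted orthotopically in female C57BL/6 mice, 16 weeks of age, and taken on day 21. EC-AGO1-KO mice carried a floxed AGO1 (gene Ago1) with Cre recombinase driven by the VE-cadherin promoter, which is active in endothelial cells, and the controls were WT littermates, so the tumor cells themselves were not edited and were the same line in both groups. The WT group was 5 libraries of 1 tumor each, and the EC-AGO1-KO group (KO below) was 5 libraries of 7 tumors, of which 2 libraries (KO 2+3 and KO 5+6) pooled 2 tumors each, since some KO tumors were small. A first batch had 1 library of each genotype and a second had 4, and the batches were read on different sequencing instruments. Every tumor was dissociated with enzymes during warm incubations, in both groups alike.

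Heat shock proteins bind unfolded protein. The HSP70 enzymes (Hspa1a, Hspa1b and Hspa8 in the cytosol, Hspa5 in the endoplasmic reticulum) hold and release clients with help from J-domain partners such as Dnajb1 and exchange factors such as Hsph1, the HSP90 pair (Hsp90aa1 and Hsp90ab1) takes over partly folded kinases and receptors, and Hspe1 is the lid of the mitochondrial chaperonin. Heat, oxidation and tissue handling activate heat shock factor, which binds repeated GAA units in the promoters of the inducible genes, while the endoplasmic reticulum sensors act on Hspa5 through another element. Tumor cells are known for high constitutive chaperone levels.

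The libraries differed by batch in ways that touch every level below. Cells were barcodes in which 200 to 7000 genes were seen and mitochondrial transcripts made up 10% or less of the UMIs (unique molecules counted). There were 65298 of them, and 532 of the 64765 distinct barcode sequences (0.821%) occurred in more than 1 library. Libraries held 8323896 to 10591577 UMIs, but the median cell had 4049 and 3862 UMIs in the WT and KO libraries of batch 1 and 595 to 1142 in those of batch 2, where Actb alone took 10.0 to 17.8% of the UMIs against 1.75 and 1.97% in batch 1. Levels are therefore given as CPM, the UMIs of a gene over all UMIs of the same cells with Actb left out, scaled to 1000000, as mean ± SD over libraries, and batches are kept apart. Clustering named 55661 cells tumor-like, 1242 T-like, 2036 myeloid-like, 406 fibroblast-like and 223 endothelial-like, and all 12 tumor, 18 T and 16 myeloid marker genes were detected in their class in both batches. In batch 2 the myeloid-like cells came mainly from a cluster that had 14 of 16 myeloid markers raised but none among its 10 leading genes. Tumor marker UMIs, summed over the 12 genes, were 6766 to 13803 CPM in these cells against 20106 to 23778 CPM in tumor-like cells. The 12 are a tumor or mesenchyme list that includes Vim, so this sum is not a measure of tumor RNA alone. Ago1, the deleted gene, had 0 UMIs in endothelial-like cells of both groups, at 65656 UMIs of WT and 82095 UMIs of KO, a depth at which a count of 0 allows up to 45.7 and 36.5 CPM, so the deletion could not be checked in them, and in tumor-like cells its level was 5.67 ± 0.510 CPM for WT and 6.11 ± 1.50 CPM for KO (SD, n = 5 each).

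The promoters are shown first, with letter matches to known stress elements. RefSeq sequence of the 250 bases before a transcription start (build GRCm38.p6, strand of the gene) was at hand for 6 of the 9 genes. Hspa1a and Hspa1b lie on the minus strand of chromosome 17 (GRCm38), at 34969190 to 34972156 and at 34956436 to 34959238, with 9951 bases between them, and capitals mark the paired units GAANNTTC, 104 bases before each start.
Hspa1a, chr17:34972157-34972406: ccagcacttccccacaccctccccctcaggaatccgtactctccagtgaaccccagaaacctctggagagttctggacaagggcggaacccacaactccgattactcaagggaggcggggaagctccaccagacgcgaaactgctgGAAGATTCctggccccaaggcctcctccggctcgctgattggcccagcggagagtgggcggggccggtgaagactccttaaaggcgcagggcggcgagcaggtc
Hspa1b, chr17:34959239-34959488: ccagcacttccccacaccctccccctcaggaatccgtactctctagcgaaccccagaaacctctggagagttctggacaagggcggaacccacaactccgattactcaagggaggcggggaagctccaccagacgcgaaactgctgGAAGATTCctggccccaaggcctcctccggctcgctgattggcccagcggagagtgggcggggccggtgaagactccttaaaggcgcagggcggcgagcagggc
The 2 promoters shared 247 of 250 bases (98.8%), and the transcripts are near copies too, so UMIs assigned to Hspa1a or to Hspa1b are uncertain as to which of the pair they came from and the pair is also given as a sum. In batch 2 the sum was 22.0 ± 7.73 CPM in tumor-like, 201 ± 162 CPM in T-like, 321 ± 194 CPM in myeloid-like and 271 ± 162 CPM in fibroblast-like cells, and 55.0 ± 16.1 CPM in free RNA, defined below (SD, n = 8). In tumor-like cells of batch 2 it ran from 16.6 to 36.4 CPM in WT and from 11.4 to 26.0 CPM in KO, and it was 35.6 and 8.30 CPM in the WT and KO libraries of batch 1.

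Hspe1 and Hspa5 show a full heat shock element and an element of the endoplasmic reticulum. The start coordinates of both lie on the plus strand. In Hspe1, capitals mark 2 overlapping matches of the 3-unit element (GAANNTTC, then 2 free bases and another GAA, or the reverse complement), at 89 and 84 bases before the start. In Hspa5, capitals mark the stress element (CCAAT, then 9 free bases, then CCACG), 65 bases before the start.
Hspe1, chr1:55087898-55088147: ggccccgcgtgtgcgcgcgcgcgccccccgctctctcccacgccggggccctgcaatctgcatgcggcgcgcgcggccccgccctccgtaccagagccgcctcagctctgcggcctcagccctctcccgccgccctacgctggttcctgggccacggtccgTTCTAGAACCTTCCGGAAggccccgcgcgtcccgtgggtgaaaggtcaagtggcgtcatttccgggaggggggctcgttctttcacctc
Hspa5, chr2:34771840-34772089: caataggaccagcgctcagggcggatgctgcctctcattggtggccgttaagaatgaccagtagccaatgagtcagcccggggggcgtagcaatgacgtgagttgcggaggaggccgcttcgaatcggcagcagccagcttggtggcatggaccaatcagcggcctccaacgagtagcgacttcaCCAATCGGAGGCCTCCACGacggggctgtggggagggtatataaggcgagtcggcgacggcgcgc
On both strands, the 3-unit element stood in 0.466% of all 32851 promoters of that length and in 1 of the 8 promoters of these genes, the pair GAANNTTC in 6.69% and in 3 of 8, the pair TTCNNGAA in 7.17% and in 3 of 8, and the endoplasmic reticulum element in 0.113% and in 1 of 8. The pairs lie within the 3-unit element where it occurs. The match of the 3-unit element was thus in a constitutive gene. Of the other inducible genes, Hsph1 had TTCNNGAA in each of its 2 promoters, 33 and 54 bases before the start, the 2 promoters of Dnajb1 had no match of the pair GAANNTTC, and no promoter of Hsp90aa1 was at hand. These are letter matches only.

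In tumor-like cells the constitutive genes dominated. Over the 8 libraries of batch 2, Hsp90ab1 was highest at 643 ± 81.9 CPM, followed by Hspa8 at 355 ± 59.2, Hsp90aa1 at 307 ± 24.0, Hspa5 at 119 ± 16.0, Hspe1 at 99.0 ± 13.98, Hsph1 at 92.0 ± 19.5, Hspa1b at 21.2 ± 7.82, Dnajb1 at 12.0 ± 1.33 and Hspa1a at 0.811 ± 0.453 CPM (SD, n = 8). In GRCm38, Hsp90ab1 lies on chromosome 17 at 45567775 to 45573271, Hspa8 on 9 at 40800984 to 40810087, Hsp90aa1 on 12 at 110690605 to 110702728, Hspa5 on 2 at 34771970 to 34777547, Hspe1 on 1 at 55088132 to 55091307, Hsph1 on 5 at 149614287 to 149636376 and Dnajb1 on 8 at 83608193 to 83612653. These are 3-prime UMI counts, not divided by transcript length. Hspa8 and Hsp90aa1, and the neighbours among Hspa5, Hspe1 and Hsph1, differed by less than the sum of their SDs, and the other neighbours by more, Hspa1b and Dnajb1 only just. Hsp90aa1 is classed as inducible, yet its basal level was close to that of Hspa8, and it supplied most of the inducible UMIs: the 5 inducible genes summed to 433 ± 37.3 CPM and the 4 constitutive genes to 1216 ± 153 CPM.

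The level of each member in tumor-like cells was set beside that in free RNA. In barcodes with 1 to 50 UMIs, which hold RNA released from broken cells, Hspa1b was at 43.3 ± 13.1 CPM in batch 2 (SD, n = 8), above tumor-like cells of the same library in 8 of 10 libraries, and Hspa1a was above them in 10 of 10. In batch 2 the level of both genes in tumor-like cells was thus below that of free RNA. Free RNA, estimated from T and myeloid marker genes, made up 6.40 to 10.3% of tumor-like UMIs in batch 2. With it subtracted, Hspa1b was at 8.28 to 33.1 CPM there. Hspa1a was at 0 to 0.418 CPM, which is not read as expression. Hsph1 and Hspa5 were higher in tumor-like cells than in free RNA in 10 of 10 libraries, Hsp90aa1 and Hsp90ab1 in 7 of 10, Hspe1 in 6 of 10, Hspa8 in 5 of 10 and Dnajb1 in 4 of 10.

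**Figure D1:**
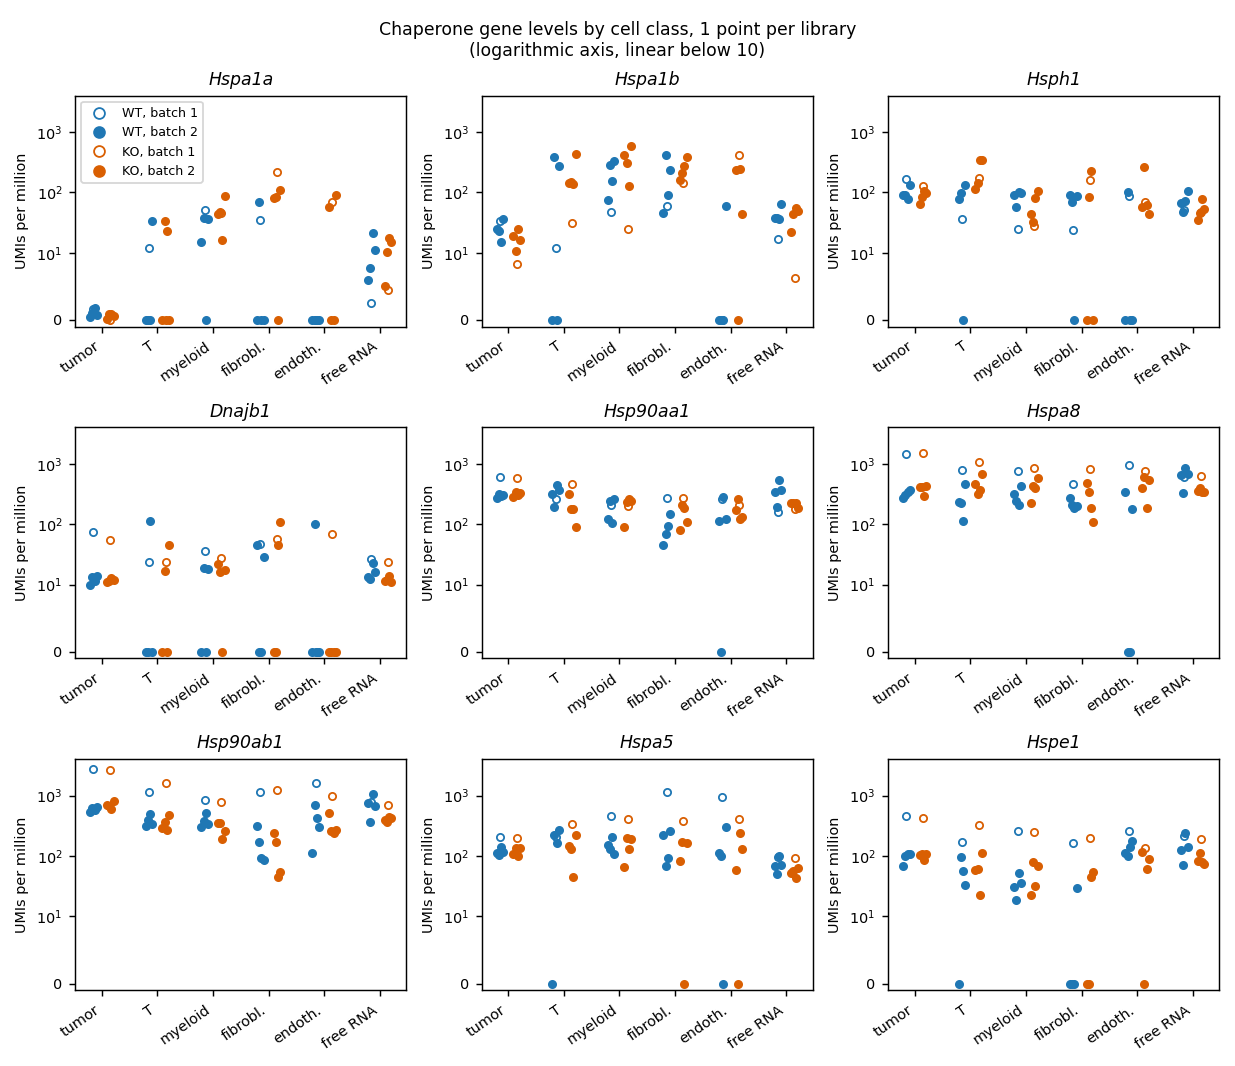
Each panel plots the level of 1 chaperone gene in CPM (logarithmic axis, linear below 10) by cell class, with 1 point per library, blue for WT and orange for KO, open for batch 1 and filled for batch 2. Hspa1b points of myeloid-like and fibroblast-like cells lie above those of tumor-like cells of the same library in 10 of 10 libraries, while Hsp90ab1 and Hspa8 points of batch 1 lie above those of batch 2 in tumor-like cells.

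Hspa1b was higher outside the tumor-like class. In myeloid-like cells of batch 2 it was at 75.5, 282, 155 and 325 CPM in the WT libraries 1, 3, 4 and 5 and at 423, 302, 129 and 590 CPM in the KO libraries 1, 2+3, 4 and 5+6, from 3 to 38 UMIs a library. The batch 2 mean was 285 ± 169 CPM, beside 21.2 ± 7.82 CPM in tumor-like cells and 43.3 ± 13.1 CPM in free RNA (SD, n = 8), and Hspa1b was higher in myeloid-like than in tumor-like cells of the same library, and higher than in free RNA, in 10 of 10 libraries. The WT and KO ranges overlapped. In batch 1 it was far lower, at 46.6 CPM from 42 UMIs for WT and 24.3 CPM from 25 UMIs for KO.

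Fibroblast-like and T-like cells also carried Hspa1b. It was at 228 ± 130 CPM in fibroblast-like cells of batch 2, above tumor-like cells in 10 of 10 libraries. The pair Hspa1a and Hspa1b together had from 1 (WT 1 and WT 4) to 14 UMIs (WT 3) a library of batch 2 there. In these fibroblast-like cells Hsp90ab1, Hsp90aa1 and Hspe1 were at 148 ± 95.3, 117 ± 58.1 and 16.3 ± 23.6 CPM, below tumor-like cells in 10 of 10 libraries each. Hspa8 was at 248 ± 118 CPM there, below tumor-like cells in 9 of 10. Hspa5, Hsph1, Hspa1a and Dnajb1 were at 133 ± 87.4, 69.9 ± 76.4, 43.2 ± 47.6 and 28.8 ± 38.9 CPM, above tumor-like cells in 6, 4, 6 and 5 of 10 libraries. Over WT and over KO of batch 2, Hspe1 had 1 and 2 UMIs, Dnajb1 2 and 3, and Hspa1a 2 and 5, so their tallies rest on few UMIs. In T-like cells Hspa1b was at 190 ± 161 CPM, above tumor-like cells in 7 of 10 libraries, and had 0 UMIs in WT 1 and WT 4, which held 74 and 39 T-like cells. In endothelial-like cells it was above tumor-like cells in 5 of 10 libraries. The classes come from clusters of the same cells, so these differences carry no test, and different clusters hold the T-like and myeloid-like cells of the 2 batches.

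Hsp90ab1, Hspe1 and Hsp90aa1 ran the other way. Hsp90ab1 was at 338 ± 94.3 CPM in myeloid-like and 368 ± 83.3 CPM in T-like cells of batch 2 against 643 ± 81.9 CPM in tumor-like cells (SD, n = 8), and was lower than in tumor-like cells in 10 of 10 libraries for both classes. Hspe1 was lower in myeloid-like cells in 10 of 10 libraries and in T-like cells in 9 of 10, and Hsp90aa1 in 10 of 10 and in 6 of 10. Hspa8 did not separate the classes: at 352 ± 127 CPM in myeloid-like and 358 ± 177 CPM in T-like cells, it was higher than in tumor-like cells in 5 and 4 of 10 libraries. Hspa5, which serves secretory cells, was higher in myeloid-like cells in 8 of 10 libraries (148 ± 48.8 against 119 ± 16.0 CPM in batch 2). This did not hold among cells of like depth, given below.

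The classes differ in depth, so the same comparison was made among cells of like depth, a choice made after their depths had been seen. Among batch 2 cells with 200 to 400 UMIs (13886 tumor-like, 882 T-like and 1045 myeloid-like cells), Hspa1b was at 33.8 ± 21.5 CPM in tumor-like, 242 ± 224 CPM in T-like and 400 ± 249 CPM in myeloid-like cells (SD, n = 8). It was above tumor-like cells in 8 of 8 libraries for myeloid-like and in 6 of 8 for T-like cells. Hsp90ab1 was at 858 ± 148, 351 ± 148 and 241 ± 78.1 CPM, in the same order, and was lower than in tumor-like cells in 7 of 8 libraries for T-like and in 8 of 8 for myeloid-like cells. Hspa8 was at 505 ± 99.99, 352 ± 134 and 354 ± 141 CPM, lower in 8 of 8 libraries for T-like and in 7 of 8 for myeloid-like cells, a separation that cells of all depths had not shown. Hspa5 in myeloid-like cells was at 162 ± 137 CPM against 134 ± 23.3 CPM in tumor-like cells, higher in 4 of 8 libraries. When cells were instead assigned by marker UMIs alone, Hspa1b was at 300 ± 192 CPM in T-like and 327 ± 257 CPM in myeloid-like cells against 24.0 ± 8.64 CPM in tumor-like cells, higher in 8 of 8 libraries for both. This tally rests on few UMIs. The 5 inducible genes together had from 3 (WT 4) to 66 (KO 2+3) UMIs a library in these T-like cells. In these myeloid-like cells they had from 1 (WT 4) to 29 (KO 5+6). By marker UMIs, Hspa5 was higher in myeloid-like than in tumor-like cells in 3 of 8 libraries and lower in 5.

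**Figure D2:**
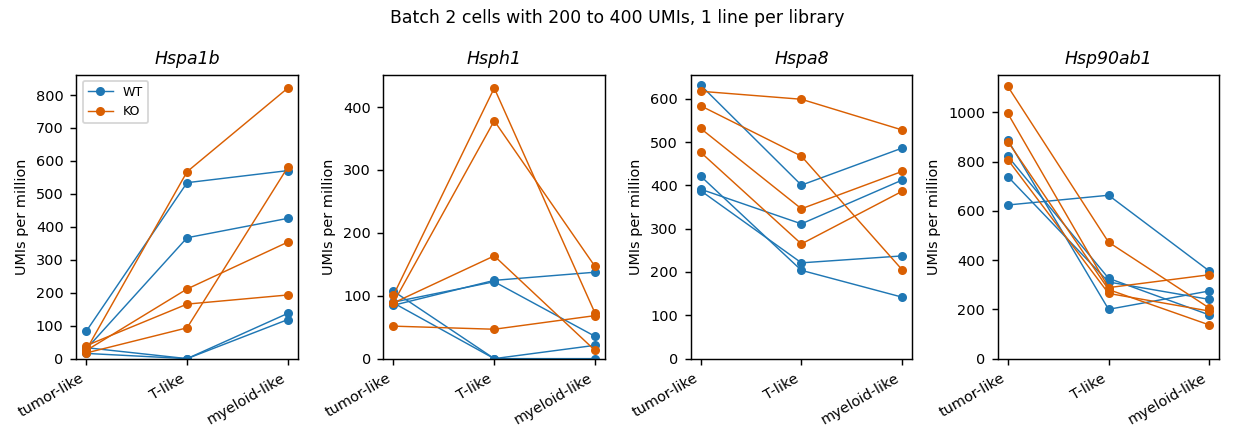
Lines join the tumor-like, T-like and myeloid-like levels (CPM, linear axes from 0) of each batch 2 library among cells with 200 to 400 UMIs, blue for WT and orange for KO, for Hspa1b, Hsph1, Hspa8 and Hsp90ab1. Myeloid-like points lie above the tumor-like points of the same library for Hspa1b and below them for Hsp90ab1 in 8 of 8 libraries, and T-like points of Hsp90ab1 lie below the tumor-like ones in 7 of 8, WT 4 being the exception.

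Immediate early genes, such as Fos, Junb and Egr1, are another family that handling of tissue switches on. In the depth-matched cells it was 1271 ± 248 CPM in tumor-like, 1737 ± 366 CPM in T-like and 3909 ± 581 CPM in myeloid-like cells, above tumor-like cells in 8 of 8 libraries for both. The T-like cells of WT 1 and WT 4 had 0 UMIs of Hspa1b, with immediate early sums of 1058 and 1437 CPM, above the 889 and 1103 CPM of the tumor-like cells. These T-like cells held only 16068 and 9044 UMIs. With cells taken by markers, Hspa1b was at 71.9 and 430 CPM in T-like cells of WT 1 and WT 4, so the 0 counts depend on depth and cell assignment. The part of dissociation in the Hspa1b level was not tested.

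Per cell, UMIs of the inducible HSP70 pair were rare. With each cell thinned to 500 UMIs and shallower cells left out, Hspa1a or Hspa1b had a UMI in 0.969% of tumor-like cells of batch 2 (328 of 33852, Wilson 95% interval 0.870 to 1.08%), in 4.48% of T-like cells (6 of 134, 2.07 to 9.42%) and in 9.05% of myeloid-like cells (19 of 210, 5.87 to 13.7%). These intervals cover counting error only, and thinning kept 62.1% of tumor-like but 11.9% of T-like and 15.7% of myeloid-like cells. Before thinning the shares were 1.58%, 5.67% and 9.895% in tumor-like, T-like and myeloid-like cells, at medians of 620, 296 and 290 UMIs per cell. In batch 1 the thinned shares were 0.649% of tumor-like cells, 0 of 109 T-like cells (Wilson upper bound 3.404%) and 3.64% of myeloid-like cells. At 1000 UMIs, where 22 T-like cells of batch 2 were left, none had a UMI, and the tumor-like share was 1.93%. The myeloid-like share of batch 2 was then 6.90% (6 of 87, 3.20 to 14.2%), below that at 500 UMIs, while the tumor-like share rose.

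In cells with the pair, the shares with other members differed from gene to gene. Among the 46 non-tumor cells of batch 2 that kept a UMI of the pair at 500 UMIs, Hspa8 had a UMI in 30.4% and Hsp90ab1 in 30.4%, against 13.3% and 15.2% of the 540 other cells, while Hsph1 had a UMI in 2.17% against 4.26% and Dnajb1 in 2.17% against 1.11%, each 1 cell of 46. In tumor-like cells, Hsph1 had a UMI in 7.93% of the 328 cells with the pair and in 4.27% of the others, and Hspa8 in 18.9% against 15.6%. These shares pool cells of several libraries and carry no test.

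The constitutive genes differed between clusters of the tumor-like class. The cluster led by Rpl29, F2r and Ewsr1 had the highest constitutive sum, 1957 ± 248 CPM over the 8 libraries of batch 2, with Hsp90ab1 at 1104 ± 124 CPM and Hspa1b at 20.2 ± 5.56 CPM. A small cluster led by predicted genes such as Gm10800 had the lowest, at 817 ± 171 CPM, with Hspa1b at 29.6 ± 19.4 CPM. Hspa1b was highest in a larger cluster led by AY036118 and Gm21738, at 37.3 ± 17.1 CPM, and lowest in the cluster led by Insig1, a sterol-regulated gene, and Tubb5, at 10.6 ± 4.52 CPM. These Hspa1b means all lay below the free RNA mean of 43.3 CPM, and free RNA was not subtracted from them. The clusters were drawn from these same cells, without the members and the related lists, so the order is a description.

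The balance of the 2 kinds was summarised as the log2 ratio of inducible to constitutive UMIs. In batch 2 it was -1.39 ± 0.10 in WT and -1.58 ± 0.23 in KO tumor-like cells (SD, n = 4 each), -0.50 ± 0.06 and -0.56 ± 0.34 in T-like cells, and -0.85 ± 0.66 and -0.39 ± 0.36 in myeloid-like cells. In batch 1 it was -2.49 and -2.63 in tumor-like, -2.73 and -2.28 in T-like, and -2.67 and -2.84 in myeloid-like cells of the WT and KO library. The ratio was therefore lower in both batch 1 libraries than in any batch 2 library in these 3 classes, and the WT and KO ranges overlapped in batch 2 in all 3 classes. Without Hsp90aa1 the KO minus WT difference of the means over all 5 libraries a group went from -0.18 to -0.41 in tumor-like cells and from 0.04 to 0.87 in T-like cells. In endothelial-like cells the ratio was -2.33 ± 0.89 in WT and -1.15 ± 0.43 in KO (SD, n = 5 each), from 16 inducible and 123 constitutive UMIs in WT and 41 and 97 in KO.

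**Figure D3:**
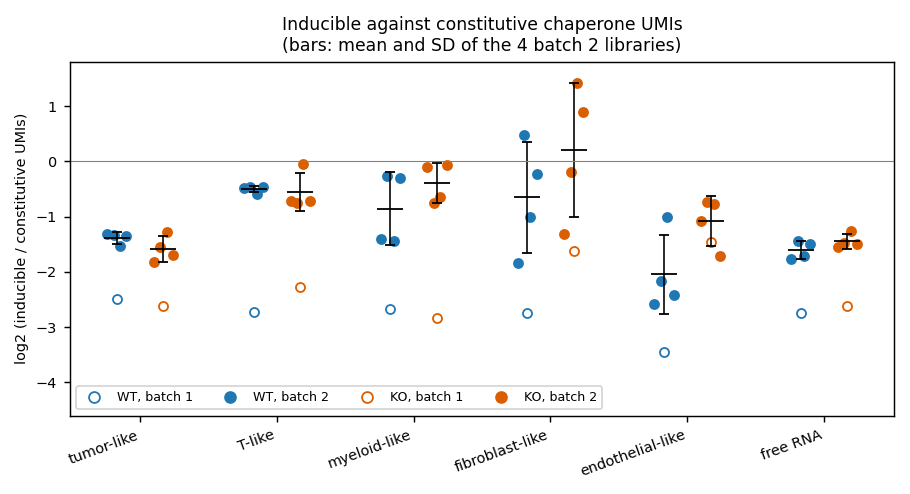
The log2 ratio of inducible to constitutive chaperone UMIs is plotted by cell class, 1 point per library, with bars for the mean and SD of the 4 batch 2 libraries of a group. Open batch 1 points lie below the filled batch 2 points in tumor-like, T-like and myeloid-like cells, and WT (blue) and KO (orange) points overlap in these 3 classes.

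Endothelial cells are the cells in which AGO1 was deleted, but they were few. Their cluster of 223 cells had 8 of 8 endothelial markers raised. The sum of the tumor genes Pvt1, Fmnl2 and Cdh13 in it was 0.481 times its tumor level, just under the limit of 0.5 for a name. By marker UMIs alone, 16 barcodes of the 10 libraries were endothelial-like, so the values below were not checked by that assignment. Hspa1b had 1 UMI among 65656 UMIs of 80 WT endothelial-like cells (15.2 CPM, exact Poisson 95% interval 0.386 to 84.9) and 15 among 82095 UMIs of 143 KO cells (183 CPM, 102 to 301), in 1 of 5 WT and 4 of 5 KO libraries. Hsp90ab1 had 54 UMIs in WT (823 CPM, 618 to 1073) and 36 in KO (439 CPM, 307 to 607), and Hspa5 had 29 in WT (442 CPM, 296 to 634) and 14 in KO (171 CPM, 93.2 to 286). The other members had few UMIs, in WT and KO: Hspa1a 0 and 4, Hsph1 3 and 7, Dnajb1 1 and 1, Hsp90aa1 11 and 14, Hspa8 28 and 40, and Hspe1 12 and 7. These intervals cover counting error within pooled libraries and not the spread between tumors.

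The endothelial-like values depended on the batch. WT batch 1 and KO batch 1 held 7 and 5 of these cells, yet 38 of the 54 WT and 14 of the 36 KO UMIs of Hsp90ab1, and 22 of the 29 WT and 6 of the 14 KO UMIs of Hspa5. In batch 2 alone Hsp90ab1 was at 377 CPM in WT (216 to 613) and 325 CPM in KO (204 to 492), Hspa5 at 165 CPM (66.4 to 340.1) and 118 CPM (51.1 to 233), and Hspa1b at 23.6 CPM (0.597 to 131) from 1 UMI and 133 CPM (60.8 to 253) from 9 UMIs, with intervals of WT and KO that overlap for each gene. In batch 2 the summed immediate early level in these cells was 1029 to 2416 CPM in WT and 2801 to 4796 CPM in KO, and tumor marker UMIs were at 16760 to 21038 CPM in WT and 12385 to 16623 CPM in KO, beside 20106 to 23778 CPM in tumor-like cells, so that neither measure overlapped between the genotypes. In WT and KO of batch 1 the tumor marker sum was 9764 and 9689 CPM, beside 11331 and 11458 CPM in tumor-like cells. This sum over the 12 tumor or mesenchyme genes, Vim among them, does not give the share of tumor RNA in these cells. The part of immediate early genes and of tumor RNA in the chaperone values was not tested.

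Between genotypes, no member passed the test in tumor-like cells. Of 13115 genes tested by edgeR's quasi-likelihood test with batch as a term, 1 gene (0.00762%) had an adjusted p under 0.05, and 0 of the 8 members tested did (Hspa1a, with 32 UMIs in WT and 12 in KO, was too low to be tested), with 1 member at an unadjusted p under 0.05 and 0 members called by DESeq2. The gene called was Hbb-bs, a beta-globin of red blood cells, whose hemoglobin list stood at 275 CPM in WT batch 1 and at 0.447 to 6.37 CPM in the other tumor-like libraries. The member values are given as a description, since this contrast was among those that chose them.

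Hspa1b was the member with the largest difference there. It was at 33.9, 25.05, 23.2, 14.9 and 35.7 CPM in the libraries WT batch 1, WT 1, WT 3, WT 4 and WT 5 and at 8.30, 19.1, 10.5, 25.1 and 16.1 CPM in KO batch 1, KO 1, KO 2+3, KO 4 and KO 5+6. WT 4 lay below 3 of the KO libraries and KO 4 above 3 of the WT libraries, so the groups overlapped. The fitted log2 fold change, KO over WT, was -0.81 (SE 0.26) and stayed negative in 20 of 20 alternatives, from -1.02 to -0.53, and with each library left out from -1.02 to -0.54. These alternatives reuse the counts by which the members were chosen, so the ranges are a description and not support. Hspa1b was higher in free RNA than in these cells in the 8 libraries of batch 2 and lower in the 2 of batch 1. The log2 fold change of Hspa1b in free RNA was -0.34 (SE 0.26).

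The other inducible members differed less. Hsph1 was at 166 CPM in WT batch 1 and 79.0 to 130 CPM in the WT libraries of batch 2, and at 128 CPM in KO batch 1 and 63.9 to 103 CPM in KO of batch 2, for a log2 fold change of -0.25 (SE 0.15). Dnajb1 had -0.20 (SE 0.14), and its batch 2 libraries lay between 9.99 and 14.1 CPM in WT and 11.0 and 12.7 CPM in KO. Hsp90aa1 was level, at 0.01 (SE 0.11).

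Among the constitutive genes, the log2 fold changes were 0.16 (SE 0.13) for Hspa8, 0.11 (SE 0.12) for Hsp90ab1, -0.05 (SE 0.13) for Hspa5 and -0.02 (SE 0.13) for Hspe1. Hspa8 ran from 272 to 372 CPM over the WT and from 294 to 424 CPM over the KO libraries of batch 2, and was at 1445 and 1509 CPM in the WT and KO libraries of batch 1. The sign of Hspa1b, Hsph1, Dnajb1, Hspa8 and Hsp90ab1 held in 20 of 20 alternatives, that of Hspa5 in 18, of Hspe1 in 13 and of Hsp90aa1 in 12. Such tallies are a description too.

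Genes of the wider chaperone network were not called in tumor-like cells either. Of 31 cochaperone and small heat shock genes tested in tumor-like cells, 11 had a log2 fold change above 0 and 20 below it (median -0.02), of 23 endoplasmic reticulum chaperone and unfolded protein response genes 11 and 12, and of 15 genes of the cytosolic chaperonin TRiC and the mitochondria 10 and 5 (median 0.07), beside a median of 0.00 over all genes tested, and none was called. The 2 most abundant of each list were Ptges3, the HSP90 cochaperone p23, with 0.01 (SE 0.13), St13 with -0.06 (SE 0.12), Canx, the membrane lectin chaperone calnexin, with -0.11 (SE 0.13), Hsp90b1, the HSP90 of the endoplasmic reticulum, with -0.07 (SE 0.16), Hspd1, the partner of Hspe1, with 0.07 (SE 0.13), and the TRiC subunit Cct2 with 0.11 (SE 0.11). In T-like cells 6 of 8 cochaperones and 3 of 6 endoplasmic reticulum genes tested were above 0, and in myeloid-like cells 6 of 14 and 4 of 9, with none called. By the same rule, Ptges3, St13, Canx and Ern1, a sensor of unfolded protein, had 0.01, -0.14, -0.19 and 0.11 in T-like cells, and Ptges3, St13, Canx, Hsp90b1, Hspa9 and Clpx had -0.19, -0.32, 0.03, 0.04, -0.31 and -0.44 in myeloid-like cells (SE 0.18 to 0.36). Immediate early genes in tumor-like cells had 17 of 18 values above 0 (median 0.18), 4 of them at an unadjusted p under 0.05 and 0 called by edgeR, beside 797 of the 13115 genes at an unadjusted p under 0.05, 424 of them above 0. The most abundant were Klf6 with 0.15 (SE 0.14) and Klf2 with 0.12 (SE 0.13). In T-like cells 3 of 4 and in myeloid-like cells 11 of 16 immediate early genes were above 0, with Junb and Klf6 at 0.19 and -0.48 in the former and Fos and Dusp1 at 0.28 and 0.42 in the latter.

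In T-like cells, Hsph1 was the member with the largest difference between genotypes. It had 3, 2, 3, 0 and 4 UMIs in WT batch 1, WT 1, WT 3, WT 4 and WT 5 (35.9, 78.3, 97.2, 0 and 135 CPM) and 22, 4, 26, 15 and 15 UMIs in KO batch 1, KO 1, KO 2+3, KO 4 and KO 5+6 (173, 115, 144, 341 and 338 CPM). Of the KO libraries, KO 1, at 115 CPM, lay within the WT range and the other 4 above it. The log2 fold change was 1.54 (SE 0.50) and ran from 1.34 to 1.83 over the 14 alternatives in which the gene was tested, which reuse the same counts. With cells taken by markers, Hsph1 was at 36.7 and 144 CPM in T-like cells of WT batch 1 and WT 1 and at 0 in WT 3, WT 4 and WT 5. The KO libraries, in the order above, were at 161, 53.5, 74.5, 416 and 379 CPM. By that assignment both KO 1 and KO 2+3 lay within the WT range. Hsph1, also called HSP110, recharges HSP70 by releasing its ADP.

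No gene was called in that comparison, so the background was 0% of 1475 genes (0 by DESeq2, and 82 at an unadjusted p under 0.05 in edgeR), with 0 of 6 members called and 1 at an unadjusted p under 0.05. Hspa1b had 1, 0, 12, 0 and 8 UMIs in the WT libraries and 4, 5, 27, 6 and 19 in the KO libraries, in the order above, with a log2 fold change of 0.22 (SE 0.54) that changed sign in 2 of 16 alternatives. Hspa1a, Dnajb1 and Hspe1 were too low to be tested. Hspa8 had 0.48 (SE 0.27), Hsp90ab1 0.08 (SE 0.25), Hspa5 0.04 (SE 0.40) and Hsp90aa1 -0.26 (SE 0.31). T-like cells of WT held UMIs of the 12 tumor or mesenchyme genes at 1198 CPM in batch 1 and 2172 to 12025 CPM in batch 2. Those of KO held them at 978 CPM and 2801 to 4597 CPM. The part of tumor RNA in these values was not tested. Free RNA, estimated from 3 tumor genes, made up 16.5 and 21.5% of the T-like UMIs in batch 1, 29.4 to 74.9% in 7 libraries of batch 2 and more than all of them (204%) in WT 4. With it subtracted, Hsph1 was at 32.9 to 190 CPM in 4 WT libraries, with no value for WT 4, and at 208 to 1130 CPM in the KO libraries, from the same few UMIs. The subtraction also scales up what remains. KO 4 went from 341 to 1130 CPM at an estimated share of 74.9%, and KO 5+6 from 338 to 918 CPM at 67.1%. The share of all genes that separate after it was not computed, so no separation of WT from KO is read from these values.

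In myeloid-like cells 0 of 2401 genes were called by edgeR (0%, 143 at an unadjusted p under 0.05, and 0 by DESeq2), and 0 of 6 members. The log2 fold changes of the members ran from -0.24 (SE 0.20) for Hsp90ab1 to 0.20 (SE 0.21) for Hspa8, with 0.16 (SE 0.31) for Hspa1b. Hspe1 was at 0.03 (SE 0.27), Hspa5 at -0.06 (SE 0.23) and Hsp90aa1 at -0.07 (SE 0.23), and Hspa1a, Hsph1 and Dnajb1 were too low to be tested. Over all cells 0 of 14181 genes were called by edgeR (0%, 1313 at an unadjusted p under 0.05, and 2 by DESeq2, of which none was a member), and 0 of 9 members. There Hspa1a had the largest value, 0.45 (SE 0.27), with 0.17 to 0.58 over 20 alternatives, followed by Hspa1b with -0.31 (SE 0.24).

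All 9 members had lower fitted levels in KO in barcodes with 1 to 50 UMIs, from -0.06 (SE 0.38) for Hspa1a to -0.90 (SE 0.30) for Hsp90ab1 on the log2 scale, with a median of -0.56 against 0.04 over the 16037 genes tested. None of the genes was called by edgeR or DESeq2 (0%), with 6 members and 4606 genes at an unadjusted p under 0.05 in edgeR. The count turned on the library WT 3: without it 7072 of 15684 genes (45.1%) were called, 22.8% lower in KO, and 7 of 9 members, all lower. Without WT batch 1 or without KO batch 1, 1105 of 17280 (6.39%) and 1093 of 17303 genes (6.32%) were called, and 3 members, Hsp90aa1, Hspa8 and Hsp90ab1. Hspa8 was at 650, 324, 866 and 685 CPM in free RNA of WT 1, 3, 4 and 5 and at 349, 390, 348 and 338 CPM in KO 1, 2+3, 4 and 5+6, so WT 3 sat below the 4 KO libraries and the other WT libraries above them. Cochaperones were lower in KO in 30 of 31, endoplasmic reticulum genes in 21 of 23 and TRiC and mitochondrial chaperones in 15 of 15. Lists without chaperones went the same way, with immediate early genes lower in 16 of 18 and hemoglobin genes in 4 of 4. Over all genes tested, 7674 of 16037 were lower.

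**Figure D4:**
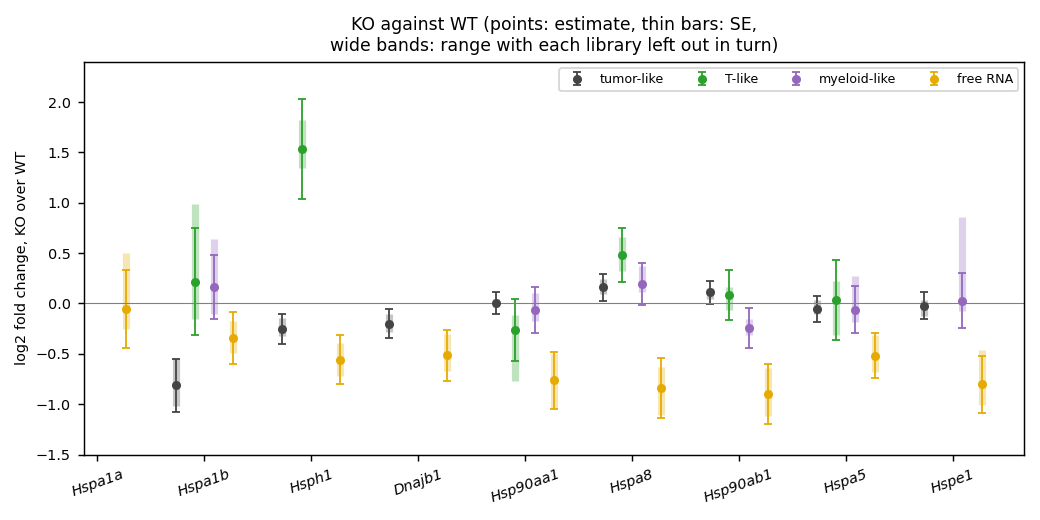
Log2 fold changes of each member, KO over WT, are plotted for tumor-like, T-like and myeloid-like cells and free RNA as points with SE bars, over bands for the range with each library left out in turn, where a gene was tested. Hspa1b in tumor-like cells (-0.81) and Hsph1 in T-like cells (1.54) keep their side of 0 over the whole band, and the 9 free RNA points lie below 0. The bands reuse the counts by which the members were chosen and are a description.

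The batches, in contrast, differed in most genes tested, most members among them. In tumor-like cells 9957 of 13115 genes (75.9%) were called between batch 1 and batch 2 by edgeR, 38.3% higher in batch 1, and 7 of the 8 members tested were called, all 7 higher in batch 1. Dnajb1 and 3 of the 4 constitutive genes had the largest values: the log2 fold change, batch 1 over batch 2, was 2.33 (SE 0.14) for Hspe1, 2.24 (SE 0.13) for Hsp90ab1 and 2.20 (SE 0.14) for Hspa8 (edgeR adjusted p of 1.11e-10, 3.53e-11 and 2.16e-10). The J-domain partner Dnajb1 had 2.54 (SE 0.15), with 73.1 and 53.9 CPM in WT and KO of batch 1 and at most 14.1 CPM in batch 2. Hsp90aa1, Hspa5 and Hsph1 had 1.10, 0.91 and 0.81. Hspa1b was the exception at 0.01 (SE 0.32), and its sign turned with DESeq2 (-0.09) and without WT batch 1 (-0.87), against 0.67 without KO batch 1.

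Genes of the related lists were called in both directions. Between the batches, 20 of 31 cochaperone genes were called higher and 7 lower in batch 1 in tumor-like cells, 14 and 6 of 23 endoplasmic reticulum genes, 12 and 3 of 15 TRiC and mitochondrial genes, and 12 and 1 of 18 immediate early genes. The median log2 fold change was 1.65 over the members, 0.77 over the cochaperones, 0.85 over the endoplasmic reticulum genes, 1.58 over the TRiC and mitochondrial genes, 1.19 over the immediate early genes, of which 72.2% were called, and -0.03 over all genes tested. The largest changes of each list follow. Among cochaperones, Hsbp1, which binds heat shock factor, had 3.104 (SE 0.17), Bag1 2.76, Ahsa1, the activator of HSP90, 2.66, the small heat shock protein Cryab 2.54 and Cacybp 2.52. In the endoplasmic reticulum list, P4hb, a protein disulfide isomerase, had 2.55 (SE 0.13), Creld2 2.35, the secretory transcription factor Xbp1 2.29, Dnajb11 2.03 and Herpud1, of the degradation machinery, -1.81 (SE 0.23). Grpel1, the exchange factor of mitochondrial HSP70, had 3.86 (SE 0.16), the protease subunit Clpp 3.39, Hspd1 2.50, the mitochondrial J-domain protein Dnaja3 -1.95 (SE 0.19) and the TRiC subunit Cct7 1.87. The immediate early genes Ier3, Klf2, Ier2, Socs3 and Jund had 3.35, 2.90, 2.58, 1.92 and 1.77.

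In T-like cells HSP90 and HSP70 genes were higher in batch 1 and Hspa1b was lower. Of 1475 genes, 617 (41.8%) were called by edgeR, 26.2% higher in batch 1 and 15.7% higher in batch 2, and 5 of the 6 members tested were called. Higher in batch 1 were Hsp90ab1 with a log2 fold change of 2.97 (SE 0.23), Hspa8 with 2.41 (SE 0.25), Hspa5 with 1.94 (SE 0.38) and Hsp90aa1 with 1.72 (SE 0.30). Hspa1b was lower in batch 1, at -1.99 (SE 0.78, edgeR adjusted p = 0.0335), where T-like cells had 1 UMI in WT and 4 UMIs in KO, but the adjusted p was 0.103 with DESeq2 and 0.122, 0.0933 and 0.0737 in edgeR without WT batch 1, KO batch 1 or WT 3. Without KO batch 1, Hsp90aa1 had 0.89 (edgeR adjusted p = 0.190). Hsph1 had 0.47 (SE 0.49) and was not called. Of the related lists in T-like cells, 1 cochaperone gene was called higher (Ubb, a ubiquitin gene) and 3 lower (Hsf2, St13 and Ptges3) of 8, 3 endoplasmic reticulum genes higher (Hsp90b1, Pdia3 and Calr) of 6, and 2 immediate early genes higher of 4 (Junb with 3.68 and Jund with 3.48). Batch 1 had 2 libraries and deeper cells throughout, and the batch and the depth of its cells cannot be told apart.

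**Figure D5:**
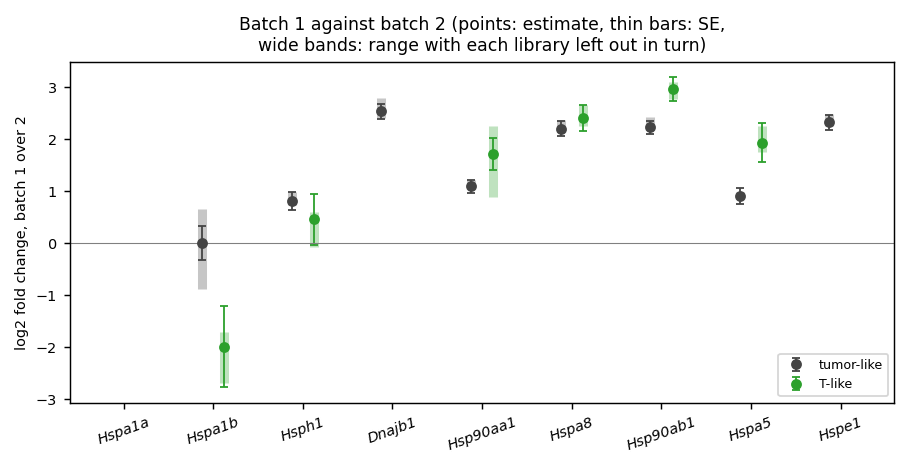
Log2 fold changes of each member, batch 1 over batch 2, are plotted for tumor-like and T-like cells as points with SE bars, over bands for the range with each library left out in turn, where a gene was tested. Hspa1b is the member at 0.01 in tumor-like cells, where its band spans 0, and the member below 0 in T-like cells.

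The genes whose level ran most like the inducible members across the tumor-like cells of the 10 libraries, after each batch mean was subtracted, were Nop10, Naa25, Ehd4, Cdkn1a, Snrpc, Smox, Atp2a2 and Hnrnpd. Pearson's r with the inducible sum ran from 0.842 for Nop10 to 0.806 for Hnrnpd among 3695 genes compared, Spearman's rho from 0.685 to 0.891, and Pearson's r within batch 2 from 0.811 to 0.906. They were picked as the 8 highest of all these genes over 10 points that share depth and batch, so the values describe these libraries and carry no p.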

How the data were processed

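Tumors were dissociated and sequenced as 3-prime single-cell RNA-seq in 10 libraries, and the deposited matrices hold UMI counts per gene and barcode that the authors made with Cell Ranger (7.1.0 in the submitters' processing notes) on mm10, without normalization or a filter on cells. Cells here are barcodes in which 200 to 7000 genes were seen and mitochondrial UMIs made up 10% or less, the limits of the study's methods. They were clustered with scanpy 1.11.5 (2000 variable genes, 30 principal components, Leiden resolution 1). A cluster was named from markers raised at least 2-fold (at least 3 of them, the sum of the tumor genes Pvt1, Fmnl2 and Cdh13 under 0.5 times its tumor level), limits set after the clusters had been seen. Doublets were not called. Libraries held 8323896 to 10591577 UMIs.

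Counts were summed per library and class with Actb left out. They were tested with edgeR 4.0.16 (quasi-likelihood, TMM, filterByExpr, batch as a term, Benjamini-Hochberg over all genes tested, called under 0.05), with DESeq2 1.42.0 as an alternative. Each library was taken as 1 replicate, and the fit was tested on simulated data. Classes and shares of cells are described without a test. Free RNA is barcodes with 1 to 50 UMIs. Other settings changed the normalization, filters, batch term, libraries, cell assignment and thinning.

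The 9 genes, the related lists and the tests were chosen with earlier results of these data known. All 9 genes are named in every class compared. Of each related list, genes called are named (at most 5, by size of change), and otherwise the 2 most abundant. The 8 genes most like the inducible sum were taken by Pearson's r on log2(CPM + 10) among genes of at least 50 CPM. Promoters are RefSeq sequence of GRCm38.p6, the build of the files.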

Additional observations from a re-analysis of the deposited data

Results flagged for a closer look

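In groups of 4 batch 2 libraries, a value was singled out where its gap to the nearest of the others passed Dixon's 95% critical value for 4 samples. Of 78 values tested 9 did, and chance gives about 1 in 20. In tumor-like cells Hspa8 in KO 4 was at 293.7 CPM against 406.2 to 424.1 CPM in the other KO libraries, and the log2 ratio of inducible to constitutive UMIs in WT 4 was -1.54 against -1.36 to -1.32. In T-like cells Hspa1b in KO 5+6 was at 428.1 CPM (19 UMIs) against 136.4 to 149.8 CPM, and the log2 ratio in KO 4 was -0.047 against -0.75 to -0.72. Hspa1a in WT 5 (33.63 CPM, 1 UMI) and Dnajb1 in WT 4 (111.3 CPM, 2 UMIs) stood apart in T-like cells because the other WT libraries had 0 UMIs. In myeloid-like cells Hsp90aa1 in KO 1 was at 88.99 CPM (4 UMIs) against 230.7 to 258.4 CPM. In free RNA Hspa1b in WT 5 was at 64.39 CPM against 35.77 to 37.87 CPM, and Hsp90aa1 in KO 5+6 was at 187.7 CPM against 220.7 to 223.6 CPM.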

How the results depend on the processing

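Between genotypes, the 1 call in tumor-like cells became 0 with DESeq2, without the batch term, in batch 2 alone, with the replicate block or with cells taken by markers, 41 without the filter on low counts, and 0 to 1 with a library left out (0 without WT batch 1, KO batch 1, WT 3 or KO 1). Hspa1b passed the threshold there without the filter alone. The 0 calls elsewhere became, without the filter, 1 in T-like cells, 12 in myeloid-like cells, 242 in all cells and 1521 in free RNA. They became 4 in myeloid-like cells and 775 in free RNA in batch 2 alone, and in all cells 2 with DESeq2 and 1 without the pooled KO libraries. With a library left out they ran from 0 to 1 in myeloid-like cells and in all cells, and from 0 to 7072 in free RNA (1105 without WT batch 1, 1093 without KO batch 1, 7072 without WT 3). The 617 calls between batches in T-like cells became 1870 without the filter and 395 with cells taken by markers. Hspa1b between batches in tumor-like cells went from 0.01 to -0.089 with DESeq2, -0.053 with its size factors, -0.060 without the pooled KO libraries, -0.069 with cells taken by markers and -0.87 to 0.67 with a library left out, and Hsph1 in T-like cells from 0.47 to between -0.071 and 0.61 with a library left out. The KO minus WT difference of the log2 ratio moved from -0.18 to -0.41 in tumor-like and from 0.04 to 0.87 in T-like cells without Hsp90aa1, and from 0.34 to 1.06 in myeloid-like cells by markers. The shares of cells with Hspa1a or Hspa1b moved from 0.969 to 1.93% (tumor-like) and from 4.48 to 0% (T-like) at 1000 UMIs. That of myeloid-like cells went from 9.05 to 6.90%, within its interval at 500 UMIs. The causes were not tested. The replicate block (2 shared numbers, whose libraries correlated at -0.375 and -0.421 over 3701 genes) gave 0 calls in each of the 5 genotype comparisons. Subtracting free RNA gave no value for T-like cells of WT 4 or for myeloid-like cells of batch 2, where its estimated share was 108 to 203%. Depth limits Hspa1a and Dnajb1 outside tumor-like cells, where libraries held 0 to 47 UMIs.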
